A study of Mus musculus with 12 samples.

Results

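The transcripts described here are those of 8 CC chemokines of the mouse: Ccl3, Ccl4, Ccl5, Ccl6, Ccl9, Ccl17, Ccl20 and Ccl22. They were chosen by name, with earlier results of these data known, by matching the RefSeq accessions of the array's probes to these symbols. Each has 1 probe among the 41174 probes, of which 25097 carry a symbol. The test covered 19329 genes that the scanner software found well above background throughout at least 1 group, among them 7 of the 8 chemokines, and Ccl22 did not qualify. RNA came from BV-2, a cell line immortalised from mouse microglia, which are macrophages resident in brain tissue. The cells were left untreated, received 20 µM curcumin (a polyphenol of turmeric), received 100 ng/ml lipopolysaccharide (LPS, a cell wall component of Gram-negative bacteria), or received both agents at those doses. Treatments lasted 6 h per the labels, which name no vehicle and no time point for untreated cells. Each group has 3 one-colour arrays. The labels do not say whether the replicates were separate cultures, so p-values measure the spread between arrays of 1 cell line, which may be technical.

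Chemokines are small secreted proteins that draw leukocytes along a gradient through G-protein-coupled receptors, and the CC class is named after a pair of adjacent cysteines. Ccl3 (MIP-1alpha), Ccl4 (MIP-1beta) and Ccl5 (RANTES) are inflammatory ligands, and microglia and macrophages make them after Toll-like receptor 4 has bound LPS. Ccl6 (C10) and Ccl9 (MIP-1gamma) are ligands of Ccr1 found in rodents, Ccl20 (MIP-3alpha) is the ligand of Ccr6, and Ccl17 (TARC) and Ccl22 (MDC) are ligands of Ccr4 that are best known from dendritic cells and macrophages. Ccl17 and Ccl22 are thus neither MIP nor RANTES proteins by name. In the RefSeq annotation Ccl5, Ccl9, Ccl6, Ccl3 and Ccl4 follow each other on chromosome 11 with no coding gene between them, Ccl22 and Ccl17 flank Cx3cl1 on chromosome 8, and Ccl20 lies on chromosome 1.

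Promoter windows were read from RefSeq (assembly GRCm38.p6, 250 bases before to 50 after the gene start) for 6 of the 8 genes; Ccl4 and Ccl5 were not in the table. Shown are the windows of Ccl9, Ccl20 and Ccl3, the 3 with a match to any of 5 motifs, in the 5′ to 3′ direction of the gene with every match in capitals. The motifs, searched on both strands, were the NF-kB consensus, AP-1 (TGANTCA), the interferon-stimulated response element (TTTC, any 2 bases, TTTC), the TATA box (TATAAA) and C/EBP (TTNNGNAAT). Ccl9 lies at chr11:83578587-83578886 on the minus strand, Ccl20 at chr1:83116516-83116815 on the plus strand, and Ccl3 at chr11:83649329-83649628 on the minus strand.
Ccl9: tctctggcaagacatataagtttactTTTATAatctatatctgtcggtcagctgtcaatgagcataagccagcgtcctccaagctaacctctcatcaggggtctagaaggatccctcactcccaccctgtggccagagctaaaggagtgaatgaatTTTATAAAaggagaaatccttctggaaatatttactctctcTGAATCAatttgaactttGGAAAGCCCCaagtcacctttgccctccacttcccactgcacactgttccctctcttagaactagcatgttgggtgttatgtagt
Ccl20: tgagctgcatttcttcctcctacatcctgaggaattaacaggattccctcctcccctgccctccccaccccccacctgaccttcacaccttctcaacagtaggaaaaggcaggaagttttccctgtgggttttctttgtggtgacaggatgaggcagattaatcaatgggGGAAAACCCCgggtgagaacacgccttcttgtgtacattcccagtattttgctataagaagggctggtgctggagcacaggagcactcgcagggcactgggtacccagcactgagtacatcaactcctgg
Ccl3: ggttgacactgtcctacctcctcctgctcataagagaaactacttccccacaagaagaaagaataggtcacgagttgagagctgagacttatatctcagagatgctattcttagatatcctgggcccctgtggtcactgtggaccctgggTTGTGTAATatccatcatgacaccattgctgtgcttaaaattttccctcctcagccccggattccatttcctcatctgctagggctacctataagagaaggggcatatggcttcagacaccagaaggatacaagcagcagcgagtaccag
In Ccl9 the capitals mark, from left to right, a TATA box on the reverse strand, a pair of overlapping TATA box matches on opposite strands, an AP-1 match, and an NF-kB match on the reverse strand that ends 26 bases before the start. In Ccl20 they mark an NF-kB match on the reverse strand that ends 71 bases before the start, and in Ccl3 a C/EBP match. Among all 32851 windows of this length, 8.46% hold the NF-kB consensus, 7.81% AP-1, 13.6% the TATA box, 11.5% C/EBP and 3.44% the interferon-stimulated response element, which matched in 0 of the 6 windows. The windows of Ccl6, Ccl17 and Ccl22 held none of the 5 strings. A match is a description of these letters and not evidence of a bound site.

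Levels are given as scaled signal, the background-subtracted spot intensity divided by the 75th percentile of all non-control spots on that array, so that a value of 1 equals that percentile. Differences are log2 differences of scaled signal between group means with the standard error (SE) of the fit, and a gene is called where its limma p, adjusted by Benjamini-Hochberg over all 19329 genes, is below 0.05. The 75th percentile lay between 304 and 979 intensity units, and 58.0% to 65.9% of spots were well above background. Each slide carried 1 array of each group, replicate number and slide coincided, and each group always took the same position, so group and position cannot be told apart. LPS+curcumin replicate 1 stood apart: its mean correlation over genes was 0.982 with LPS replicates and 0.950 with curcumin replicates, whereas LPS+curcumin replicates 2 and 3 had 0.940 and 0.923 with LPS and 0.984 and 0.985 with curcumin. Relative to spike-in control RNA, the 75th percentile was lower in the curcumin arrays (log2 -2.19 ± 0.153, SD, n = 3) and LPS+curcumin arrays (-2.08 ± 0.650, SD, n = 3) than in untreated (-1.09 ± 0.184, SD, n = 3) or LPS arrays (-1.36 ± 0.143, SD, n = 3). Changing from 75th-percentile to spike-in scaling therefore moved the median of all genes from 0.41 to -0.69 for curcumin versus untreated and from 0.32 to -0.40 for LPS+curcumin versus LPS, and results that turn on this are named below.

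The labelled cell type was checked on marker lists. All 11 microglial and macrophage markers on the array were detected, with a summed scaled signal of 125 to 245 over the 12 arrays, and of these Cx3cr1 and Tmem119 fell with curcumin alone and P2ry12 was at least 2.36-fold lower with LPS (adjusted p = 0.0196). Astrocyte markers summed to between 0.0495 and 0.215 and neuron markers to between 0.0164 and 0.0603, with Gfap, Aldh1l1, Snap25, Nefl and Map2 not well above background on any array. Neutrophil markers summed to 0.0815 to 0.0954 in untreated, 0.313 to 0.434 in curcumin, 0.147 to 0.265 in LPS and 0.101 to 0.378 in LPS+curcumin arrays, and T-cell markers to 0.686 to 0.743, 1.21 to 1.70, 1.42 to 1.54 and 0.871 to 1.82 in the same order. Both sums were thus higher on all LPS arrays than on all untreated arrays, beside the chemokines that rose. They were likewise higher on all curcumin arrays than on all untreated arrays, beside Ccl3 and Ccl4, which fell with curcumin. Of the 3 tested genes in each list, LPS raised the neutrophil gene Camp at least 17.9-fold from below background (adjusted p = 8.63e-05) and the T-cell gene Lck 2.16-fold (adjusted p = 0.034, and 0.0876 on spike-in scaling), while S100a9, Elane and Cd3d were not well above background on any array. The other tested genes, S100a8, Mpo, Cd3e and Cd4, were not called with LPS. Curcumin alone raised Mpo 9.46-fold (adjusted p = 0.00272, and 0.00344 on spike-in scaling) and S100a8 1.93-fold (adjusted p = 0.0197, and 0.535 on spike-in scaling). That was 2 of the 3 neutrophil genes, beside 21.9% of all genes called higher. The T-cell genes Cd3e (1.88-fold, adjusted p = 0.0399) and Lck (1.91-fold, adjusted p = 0.0266) were also called higher with curcumin, and Cd4 was not. On spike-in scaling the log2 differences of Cd3e, Lck and Cd4 were negative (-0.19, -0.18 and -0.45), without a call. Dendritic-cell markers, of which 5 of 7 were on the array, ranged from 2.66 to 4.56 in untreated, 2.81 to 3.96 in LPS and 2.09 to 7.96 in LPS+curcumin arrays. Oligodendrocyte markers summed to between 0.323 and 0.710. All RNA came from the BV-2 line, and the relation of these markers' signals to the chemokine values was not tested.

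**Figure D1:**
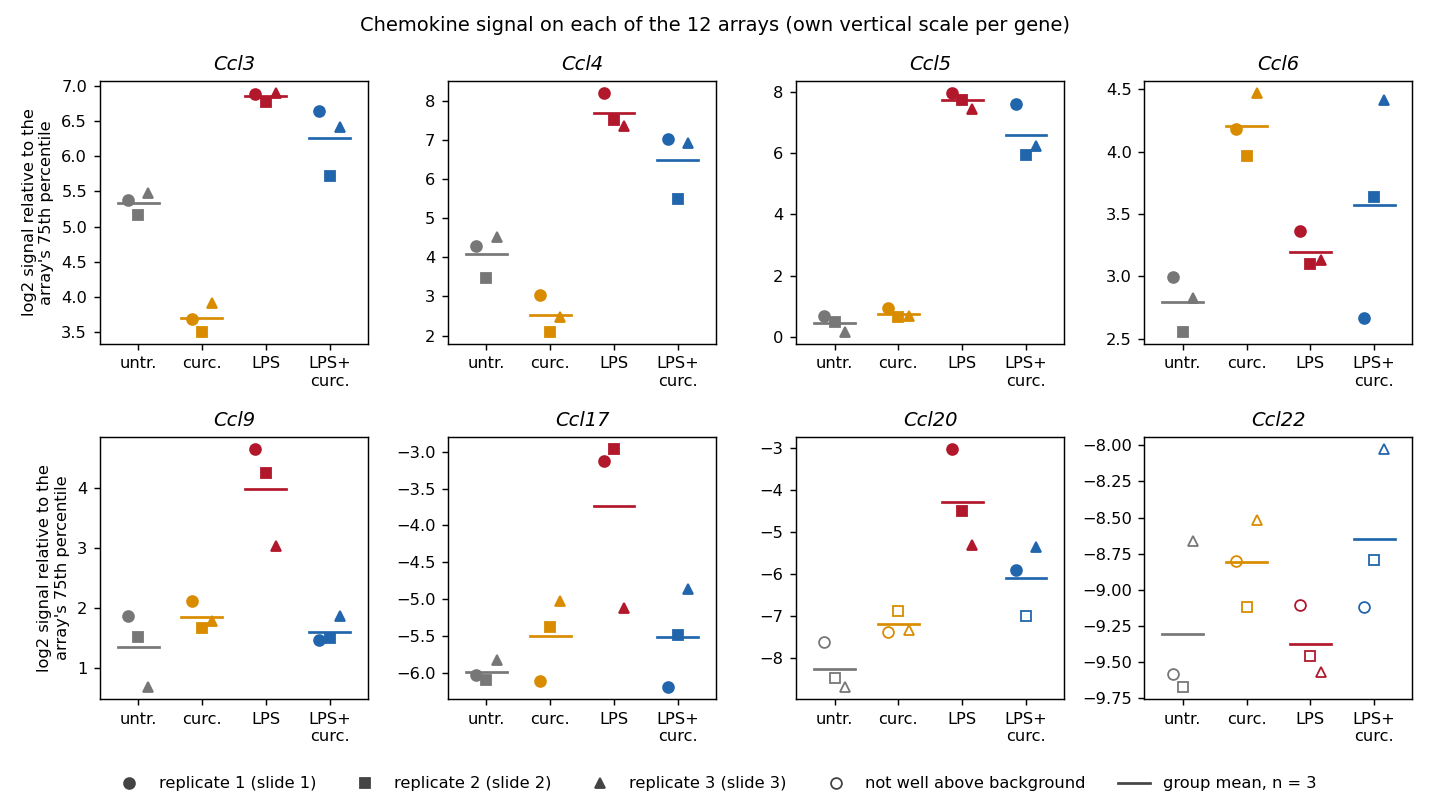
Signal of the 8 chemokine transcripts on each array, as log2 of the signal relative to the array's 75th percentile (vertical axis, own scale for each gene), by group; the marker shape gives the replicate, open markers were not well above background and lines are group means. The 3 LPS arrays lie above the 3 untreated arrays for every gene except Ccl22, and the LPS+curcumin arrays lie near the LPS arrays for Ccl5 but near the curcumin arrays for Ccl9.

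The first comparison, LPS versus untreated, shows which of these chemokines BV-2 cells raise after LPS. Of the 7 transcripts tested, 6 rose and 0 fell, beside 4.12% of all genes called higher and 1.61% called lower, and the median log2 difference was 2.62 against 0.01 over all genes tested. Ccl5 rose by the largest step of the 7, 153-fold, Ccl4 rose 12.02-fold, Ccl9 6.16-fold, Ccl17 4.75-fold and Ccl3 2.85-fold. Ccl20 rose at least 8.64-fold from a level below background. It entered the test through the LPS group alone, so the filter favoured a rise and its call adds little to the count. Among genes well above background on all 12 arrays, 5 of 6 members rose, beside 5.56% of all genes called in either direction. Ccl6 did not pass the test.

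Ccl5, which attracts T cells and monocytes, had scaled signals of 1.63, 1.41 and 1.13 in untreated replicates 1 to 3 and 249, 215 and 175 in LPS replicates 1 to 3. All LPS arrays were thus far above all untreated arrays. The log2 difference was 7.26 (SE 0.37, adjusted p = 2.09e-06), and the differences within slides 1, 2 and 3 were 7.25, 7.25 and 7.27. Ccl4 had 19.4, 11.1 and 23.1 in untreated cells and 293, 182 and 163 after LPS, again without overlap, a log2 difference of 3.59 (SE 0.45, adjusted p = 0.00057). Ccl3, the neighbour of Ccl4 on chromosome 11, started from 41.5, 35.8 and 44.7 and reached 119, 109 and 119. Its groups did not overlap, and the log2 difference was 1.51 (SE 0.24, adjusted p = 0.00293). On spike-in and median scaling the rise of Ccl3 was 1.24 and 1.36 and was not called (adjusted p = 0.126 and 0.102).

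Ccl9, a ligand of Ccr1, had 3.66, 2.85 and 1.61 in untreated cells and 25.1, 19.0 and 8.21 after LPS. The lowest LPS array was above the highest untreated array, and the log2 difference was 2.62 (SE 0.40, adjusted p = 0.0024). Ccl6, its neighbour and relative, had 7.95, 5.88 and 7.08 in untreated cells and 10.3, 8.57 and 8.73 after LPS. These Ccl6 groups also did not overlap, as holds upward for 16.7% of all genes, yet the log2 difference of 0.41 (SE 0.36, 95% interval -0.38 to 1.196) had an adjusted p of 0.79.

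Ccl20, which draws cells bearing Ccr6, was not well above background on any of the 6 untreated and curcumin arrays, where its scaled signal was 0.0024 to 0.00508 and 0.00596 to 0.00847. After LPS it was 0.124, 0.0438 and 0.025, well above background on all 3 arrays. The fitted log2 difference was 3.99 (SE 0.56, adjusted p = 0.00134), of which the bound of 8.64-fold is what the background allows. Ccl17 was well above background on all 12 arrays but close to it, with intensities of 14.0 to 16.7 in untreated cells where the dimmest probe called well above background on an array had 5.33 to 6.72. Its scaled signals were 0.0153, 0.0146 and 0.0177 in untreated cells and 0.114, 0.129 and 0.0286 after LPS, so replicate 3 showed a smaller step than the others. The log2 difference was 2.25 (SE 0.54, adjusted p = 0.0334), with 2.90, 3.14 and 0.70 within slides 1, 2 and 3. The Ccl17 call was lost in 6 of 12 fits that left out 1 array (either of LPS replicates 1 and 2, curcumin replicate 2, or any untreated array; adjusted p 0.0538 to 0.147). Ccl22, the other Ccr4 ligand, had intensities of 1.11 to 2.34 over the 12 arrays and was not well above background on any of them, so no level or change can be given.

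The calls for Ccl4, Ccl5, Ccl9 and Ccl20 held on all 5 scalings tried (75th percentile, the same over probes detected on all arrays, quantile, median and spike-in), as did 1.73% of all genes upward. With normexp background correction, in which an offset damps dim probes, 3 members were called, beside 1.02% of all genes, against 6 and 5.73% without it.

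**Figure D2:**
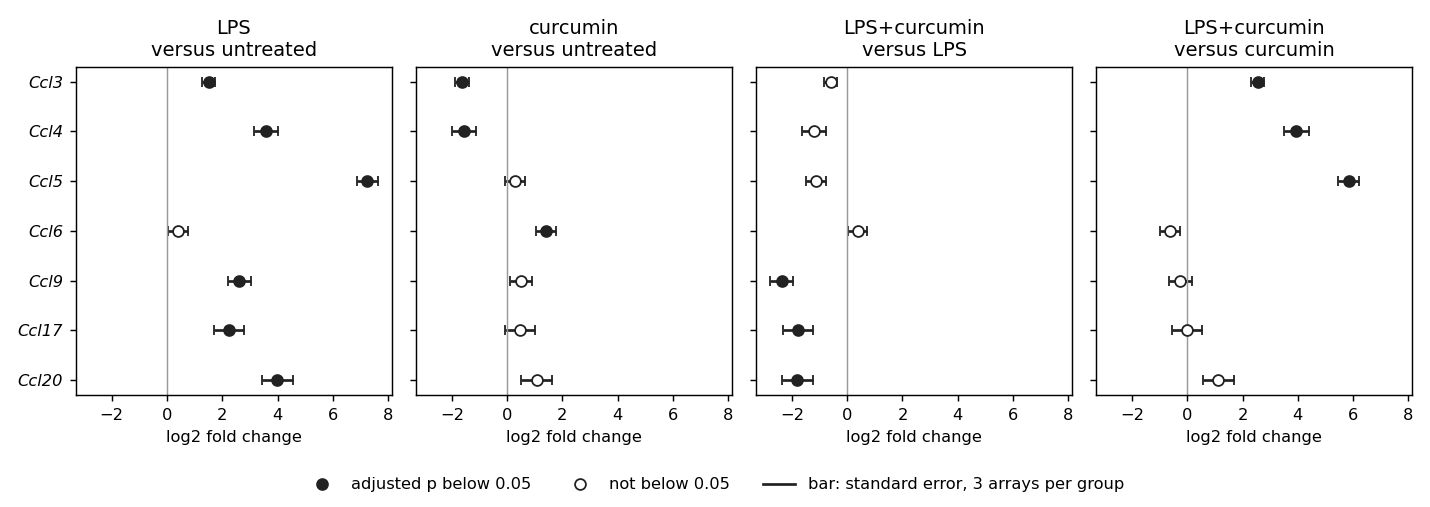
Log2 fold change (horizontal axis) of the 7 tested chemokines in 4 comparisons, with bars for the standard error (3 arrays per group); filled points have an adjusted p below 0.05. For LPS versus untreated all 7 lie to the right of 0 and 6 are filled, and in LPS+curcumin versus curcumin only Ccl3, Ccl4 and Ccl5 are filled.

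Curcumin alone changed fewer members and in both directions. Ccl3 and Ccl4 fell, Ccl6 rose, and Ccl5, Ccl9, Ccl17 and Ccl20 were not called, that is 1 of 7 higher and 2 of 7 lower beside 21.9% and 7.27% of all genes. The median of the 7 was 0.48 and that of all genes 0.41. Ccl3 went from 41.5, 35.8 and 44.7 in untreated cells to 12.9, 11.4 and 15.2 with curcumin, a 3.10-fold lower level (log2 difference -1.63, SE 0.24, adjusted p = 0.00157). Ccl4 went from 19.4, 11.1 and 23.1 to 8.22, 4.29 and 5.55, a 2.94-fold lower level (log2 difference -1.56, SE 0.45, adjusted p = 0.0266). In neither gene did the groups overlap, as holds downward for 17.8% of all genes, and each fell within all 3 slides, by 1.56 to 1.68 for Ccl3 and by 1.24 to 2.06 for Ccl4. Both calls held on all 5 scalings, as did 6.49% of all genes downward. The Ccl4 call was lost without curcumin replicate 2 or 3 or untreated replicate 1 or 3 (adjusted p 0.0782 to 0.0934).

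Ccl6 moved the other way, from 7.95, 5.88 and 7.08 to 18.1, 15.6 and 22.2, without overlap, as holds upward for 47.4% of all genes (log2 difference 1.42, SE 0.36, adjusted p = 0.0163). That rise was called on 3 of the 5 scalings and not on the spike-in (0.31, adjusted p = 0.245) or median scaling (0.58, adjusted p = 0.189). It was also lost without curcumin replicate 3 (adjusted p = 0.0668) or untreated replicate 2 (adjusted p = 0.0626).

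Ccl5 had 1.92, 1.56 and 1.61 with curcumin against 1.63, 1.41 and 1.13 without, overlapping groups with a log2 difference of 0.29 (95% interval -0.52 to 1.11, adjusted p = 0.535). Ccl9 had 4.36, 3.16 and 3.43 against 3.66, 2.85 and 1.61 (log2 difference 0.50, 95% interval -0.39 to 1.39, adjusted p = 0.337). Ccl17 had 0.0144, 0.0241 and 0.0307 against 0.0153, 0.0146 and 0.0177 (log2 difference 0.48, 95% interval -0.71 to 1.67, adjusted p = 0.487). The signs of these 3 differences turned negative on spike-in and median scaling, and that of Ccl17 on quantile scaling too, without a call. Ccl20 was below background in both groups and has no fold.

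The third comparison, LPS+curcumin versus LPS, asks how chemokine levels in the presence of LPS differed with curcumin. It includes any effect that curcumin has without LPS, and the change of the LPS response itself is tested by the interaction below. Ccl9, Ccl17 and Ccl20 fell, and Ccl3, Ccl4, Ccl5 and Ccl6 were not called, so 0 of 7 were higher and 3 of 7 lower, beside 12.7% and 5.99% of all genes. The median of the 7 was -1.21, against 0.32 over all genes. Ccl9 fell 5.18-fold and Ccl17 3.43-fold, and Ccl20 at least 3.13-fold, with the 1 array that was not well above background set to the dimmest signal that was. As Ccl20 entered the test through the LPS group alone, the filter favoured its fall here. Among genes well above background on all 12 arrays, 2 of 6 members were lower, beside 15.5% of all genes called in either direction.

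Ccl9 went from 25.1, 19.0 and 8.21 with LPS to 2.77, 2.82 and 3.63 with both agents. The LPS+curcumin arrays were all below the lowest LPS array and within the range of the curcumin and untreated arrays (1.61 to 4.36). The log2 difference was -2.37 (SE 0.40, adjusted p = 0.00447), it held on all 5 scalings, as did 5% of all genes downward, and in each fit without 1 array, and within slides 1, 2 and 3 it was -3.18, -2.75 and -1.18. Fitted on the 6 arrays compared alone, where 1.55% of all genes were called in either direction against 18.7% over the 12 arrays, the adjusted p of Ccl9 was 0.0505, and with normexp background correction it was 0.0575. The call was also lost without replicate number 2 (adjusted p = 0.267), where 0.0466% of all genes were called.

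Ccl17 went from 0.114, 0.129 and 0.0286 to 0.0136, 0.0223 and 0.0344, and replicate 3 with both agents was above replicate 3 with LPS. Its groups overlapped, and the log2 difference was -1.78 (SE 0.54, adjusted p = 0.0425), with -3.07, -2.53 and 0.27 within slides 1, 2 and 3. Ccl20 went from 0.124, 0.0438 and 0.025 to 0.0167, 0.00781 and 0.0243, and replicate 2 with both agents was not well above background. The fitted log2 difference for Ccl20 was -1.81 (SE 0.56, adjusted p = 0.0468), with -2.89, -2.49 and -0.04 on the 3 slides. Slide 3 thus showed little or no fall for either gene. Both calls held on all 5 scalings, but each was lost in 9 of 12 fits without 1 array, namely any untreated or curcumin array, LPS replicate 1 or 2, or LPS+curcumin replicate 2 (adjusted p 0.0505 to 0.148 for Ccl17 and 0.0551 to 0.174 for Ccl20). On the 6 arrays compared alone the adjusted p was 0.165 for Ccl17 and 0.169 for Ccl20.

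Ccl3, Ccl4 and Ccl5 were lower with both agents on every slide, by steps that were not called on 75th-percentile scaling without regard to slide. Ccl3 had 119, 109 and 119 with LPS and 100, 52.6 and 85.6 with both agents (log2 difference -0.59, SE 0.24, adjusted p = 0.102). Ccl4 had 293, 182 and 163 and then 131, 44.5 and 121 (log2 difference -1.21, SE 0.45, adjusted p = 0.0799). Ccl5 had 249, 215 and 175 and then 196, 61.3 and 74.8 (log2 difference -1.13, SE 0.37, adjusted p = 0.0554). The groups overlapped for Ccl5 only, through replicate 1 with both agents, while for Ccl3 and Ccl4 they did not overlap, as holds downward for 8.93% of all genes. With slide as a block all 3 were called (adjusted p = 0.045 for Ccl3, 0.0183 for Ccl4 and 0.0214 for Ccl5), and the count of members called rose from 3 to 6, beside 8.73% of all genes called lower in that fit. Without the block, all 3 were also called on spike-in scaling (adjusted p = 0.0419, 0.0359 and 0.0498 in the same order). The same held on median scaling (adjusted p = 0.0369, 0.0329 and 0.0306). In these 2 fits 16.6% and 21.3% of all genes were called in either direction. On quantile scaling only Ccl4 of the 3 was called (adjusted p = 0.0405).

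LPS+curcumin replicate 1, the array nearest to the LPS arrays, held the highest LPS+curcumin value of Ccl3, Ccl4 and Ccl5 and the lowest of Ccl6, Ccl9 and Ccl17. Without it Ccl3 fell by 0.79 (adjusted p = 0.0146), Ccl4 by 1.48 (adjusted p = 0.0202) and Ccl5 by 1.64 (adjusted p = 0.000184) on the log2 scale. Ccl9 then fell by 2.30 (adjusted p = 0.00193), Ccl17 fell by 1.44 (adjusted p = 0.0489) and Ccl20 fell by 1.90 (adjusted p = 0.0264). Ccl6 was then higher by 0.83 (adjusted p = 0.0193). In that fit 1 of 7 members was higher and 6 of 7 lower, beside 40% and 14.8% of all genes.

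Ccl6 had 10.3, 8.57 and 8.73 with LPS and 6.34, 12.4 and 21.3 with both agents, a spread that covered all the LPS arrays (log2 difference 0.37, SE 0.36, 95% interval -0.42 to 1.17, adjusted p = 0.443). Its difference was -0.70, 0.54 and 1.28 on slides 1, 2 and 3, and turned negative on spike-in and median scaling (-0.35 and -0.36) and without LPS+curcumin replicate 3 (-0.05), each time without a call.

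**Figure D3:**
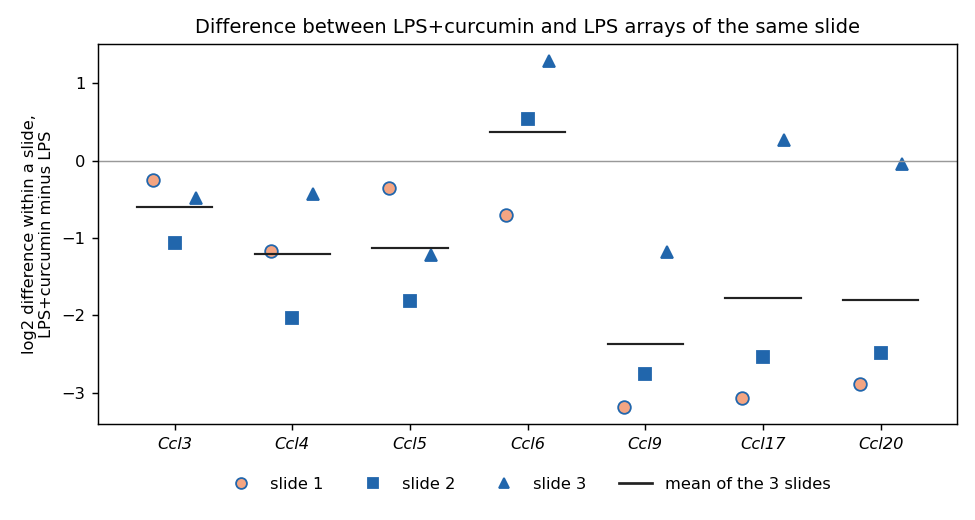
Log2 difference between the LPS+curcumin and the LPS array of each slide (vertical axis) for the 7 tested chemokines; the markers are slides 1 to 3 and the line is their mean. Slide 1, which holds the LPS+curcumin array that stands apart, lies nearest to 0 for Ccl3 and Ccl5 and farthest below 0 for Ccl9, Ccl17 and Ccl20.

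The fourth comparison, LPS+curcumin versus curcumin, gives the response to LPS in the presence of curcumin. Ccl3, Ccl4 and Ccl5 rose and the other 4 members were not called, that is 3 of 7 higher and 0 lower, beside 0.202% (39 genes) and 0.0103% of all genes. Ccl5 rose 57.1-fold, from 1.92, 1.56 and 1.61 to 196, 61.3 and 74.8 (log2 difference 5.83, SE 0.37, adjusted p = 4.19e-05). Ccl4 rose 15.3-fold, from 8.22, 4.29 and 5.55 to 131, 44.5 and 121 (log2 difference 3.94, SE 0.45, adjusted p = 0.00375). Ccl3 rose 5.86-fold, from 12.9, 11.4 and 15.2 to 100, 52.6 and 85.6 (log2 difference 2.55, SE 0.24, adjusted p = 0.000965). The groups did not overlap for any of the 3, as holds upward for 3.03% of all genes, and the calls held on all 5 scalings, as did 0.088% of all genes, and in each fit without 1 array, LPS+curcumin replicate 1 included. Only Ccl5 was called on the compared groups alone (beside 0.031% of all genes), without replicate number 2 (0.0207%) and without replicate number 3 (0.031%). Over all alternatives the adjusted p reached 0.154 for Ccl3, 0.186 for Ccl4 and 0.0467 for Ccl5.

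Ccl9, which had risen 6.16-fold with LPS alone, had 4.36, 3.16 and 3.43 with curcumin and 2.77, 2.82 and 3.63 with both agents. The groups overlapped, and the log2 difference was -0.25 (SE 0.40, 95% interval -1.14 to 0.64, adjusted p = 0.933). Ccl17 differed by -0.01 (95% interval -1.196 to 1.18, adjusted p = 0.999) and Ccl6 by -0.63 (95% interval -1.43 to 0.16, adjusted p = 0.869). For Ccl20 the fitted difference was 1.11 (adjusted p = 0.869), and the background allows a bound of 1.36-fold only.

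Against untreated cells, cells given both agents had higher Ccl3, Ccl4, Ccl5 and Ccl20 (4 of 7 higher and 0 lower, beside 18.2% and 6.26% of all genes). Ccl5 stood 70.0-fold above untreated cells (log2 difference 6.13, SE 0.37, adjusted p = 1.24e-05) and was the only member called on all 5 scalings, as were 3.94% of all genes upward. Ccl4 stood 5.21-fold above (log2 difference 2.38, SE 0.45, adjusted p = 0.00559) and Ccl20 at least 2.47-fold above (fitted log2 difference 2.18, SE 0.56, adjusted p = 0.0206). Ccl3 was 1.89-fold above (log2 difference 0.92, SE 0.24, adjusted p = 0.0213), and on spike-in scaling that difference was -0.08. The Ccl3 call was lost without LPS+curcumin replicate 3 or any untreated array (adjusted p 0.0515 to 0.0792), and the Ccl20 call without LPS+curcumin replicate 3 or untreated replicate 2 or 3 (adjusted p 0.067 to 0.0719). Ccl6, Ccl9 and Ccl17 differed by 0.78, 0.25 and 0.47 and were not called (adjusted p = 0.128, 0.656 and 0.525), and without LPS+curcumin replicate 1 Ccl6 was called at 1.23 (adjusted p = 0.00263). These comparisons share arrays: the untreated, LPS, curcumin and LPS+curcumin arrays each enter several of them.

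**Figure D4:**
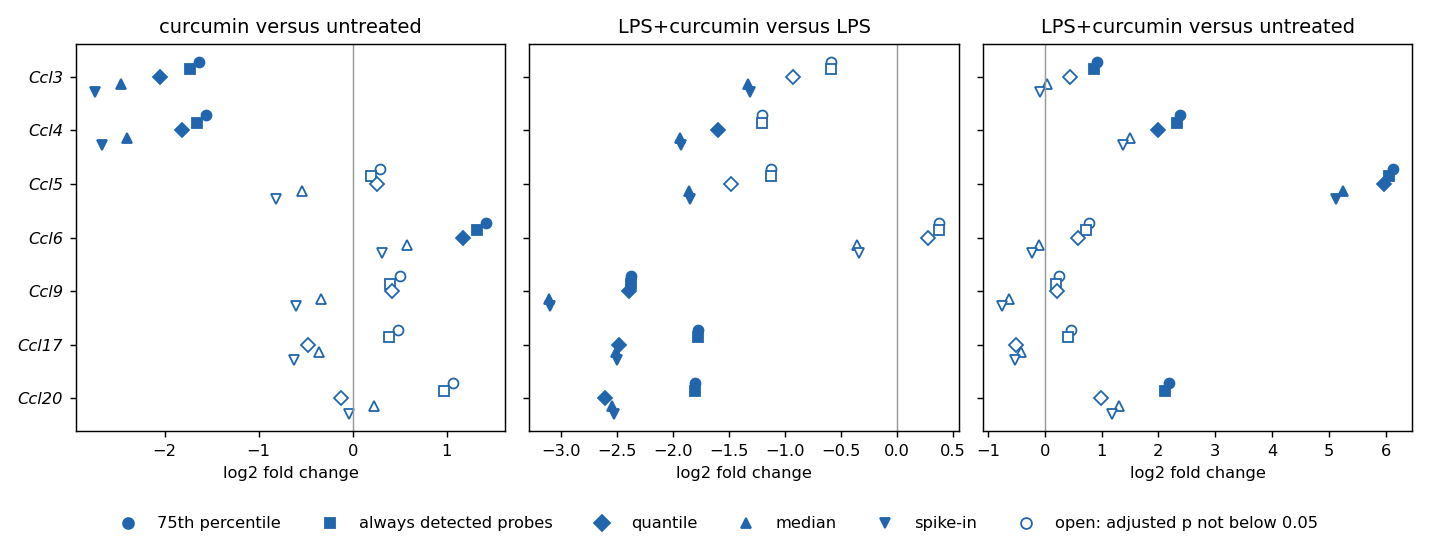
Log2 fold change (horizontal axis) of the 7 tested chemokines under 5 ways of scaling the arrays (marker shapes), in 3 comparisons; open markers have an adjusted p not below 0.05. Ccl3 and Ccl4 fell with curcumin on every scaling, whereas the sign for Ccl5, Ccl9 and Ccl17 in curcumin versus untreated changed with the scaling.

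The interaction subtracts curcumin's effect in cells without LPS from its effect in cells with LPS, and it tests directly whether the response to LPS differed in the presence of curcumin. None of the 7 members passed the limma test, beside 0.729% of all genes; 5 of the 7 had an unadjusted p below 0.05, as did 6.62% of all genes. Ccl9 had -2.87 (SE 0.57, adjusted p = 0.0522), and was called with slide as a block (adjusted p = 0.0316), without LPS+curcumin replicate 1 (-2.80, adjusted p = 0.0381) and without LPS replicate 3 (-3.34, adjusted p = 0.0105). Ccl5 had -1.42 (SE 0.52, adjusted p = 0.514), and without LPS+curcumin replicate 1 it was called at -1.93 (adjusted p = 0.00474). Ccl17 had -2.26 (SE 0.76, adjusted p = 0.406), and was called without LPS replicate 3 at -2.95 (adjusted p = 0.0437). Ccl20, below background in 2 of the 4 groups, had a fitted -2.87 (SE 0.80, adjusted p = 0.208), Ccl3 1.04 (SE 0.34, adjusted p = 0.368), Ccl6 -1.04 (SE 0.51, adjusted p = 0.817) and Ccl4 0.35 (SE 0.63).

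Setting the 4 groups in order for each gene gave 4 orders, described here with the tests between neighbours (LPS versus curcumin was added as a comparison for this purpose after values were seen). For Ccl3 and Ccl4 the order from low to high was curcumin, untreated, LPS+curcumin and LPS, and each step was called except the last. For Ccl5 it was untreated, curcumin, LPS+curcumin and LPS, with only the middle step called. For Ccl9 and Ccl17 it was untreated, LPS+curcumin, curcumin and LPS, and only LPS stood apart from its neighbour, by 2.13 for Ccl9 (adjusted p = 0.00333) and 1.77 for Ccl17 (adjusted p = 0.0274). For Ccl17 the LPS and curcumin groups overlapped, and slide 3 went the other way (-0.10). For Ccl20 the untreated and curcumin groups were below background and have no order. The LPS+curcumin mean lay above theirs, but the step from curcumin was not called (fitted 1.11, adjusted p = 0.869). These 2 groups overlapped, as replicate 2 was at 0.00781 with both agents and at 0.00847 with curcumin. The LPS mean of Ccl20 was the highest, with the step from LPS+curcumin to LPS called. Ccl6 ran from untreated over LPS and LPS+curcumin to curcumin with no step called, while its ends, untreated and curcumin, differed.

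Across the 12 arrays the profiles of Ccl3 and Ccl4 were the most alike among the members (Pearson r = 0.965 on log2 values), followed by Ccl4 and Ccl5 (r = 0.929) and by Ccl9 with Ccl17 (r = 0.871) and Ccl20 (r = 0.861). Ccl3 and Ccl6, neighbours on chromosome 11, ran against each other (r = -0.486). These values are descriptions over 12 arrays that fall into 4 treatment groups and share 3 slides. Likeness was also ranked over tested genes that had a value on all 12 arrays and a symbol, leaving out placeholder symbols such as Rik or Gm numbers. Among these, the profile most like that of Ccl5 was Ccrl2 (r = 0.991), followed by the chemokine genes Cxcl10 (r = 0.988) and Cxcl2 (r = 0.987). Ccl4 was followed, after Ccl3, by the adhesion molecule gene Icam1 (r = 0.960) and Ccrl2 (r = 0.960). The nearest to Ccl9 were Pilrb2 (r = 0.986) and Cd38 (r = 0.985), to Ccl6 Npc2 (r = 0.988), to Ccl17 Has1 (r = 0.951) and to Ccl20 Sdc4 (r = 0.972).

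Of the 13 CC chemokine receptors listed, 8 were tested. Ccr1, the receptor of Ccl6 and Ccl9, and Ccr4, the receptor of Ccl17 and Ccl22, were not well above background on any array. LPS raised 3 of the 8 and lowered 0 (median 0.83), beside 4.12% and 1.61% of all genes: Ccrl2, an atypical receptor that does not signal through G proteins, 78.5-fold, Ccr7 at least 7.06-fold and Ccr9 3.88-fold. Curcumin raised 4 and lowered 1 (median 1.04), beside 21.9% and 7.27%. Ackr2, a decoy receptor that takes up and degrades inflammatory CC chemokines, was not well above background in untreated cells and stood at least 6.19-fold higher with curcumin (log2 difference 3.96, SE 0.55, adjusted p = 0.00121). It was likewise at least 3.38-fold higher with both agents than with LPS (adjusted p = 0.00746), and both Ackr2 calls held on all 5 scalings.

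Ccr6, the receptor of Ccl20 and singled out after its values were seen, had 0.00913, 0.0173 and 0.0168 in untreated cells and 0.130, 0.1602 and 0.219 with curcumin, 11.97-fold higher (log2 difference 3.58, SE 0.79, adjusted p = 0.00875). With LPS Ccr6 was at 0.0113, 0.0152 and 0.0168, and with both agents at 0.0183, 0.1504 and 0.312, where replicate 1 lay near the LPS arrays. With both agents against LPS, 3 receptors were higher and 2 lower (median -0.66), beside 12.7% and 5.99% of all genes, and without LPS+curcumin replicate 1, 3 were higher and 5 lower, beside 40% and 14.8%.

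Of 12 other CC chemokine genes on the array 8 were tested, and 4 rose with LPS and 0 fell (median 1.99), beside 4.12% and 1.61% of all genes. These were the monocyte attractants Ccl2 (14.8-fold), Ccl7 (61.7-fold), Ccl8 (at least 8.71-fold) and Ccl12 (38.5-fold). With curcumin alone 2 were called higher and 1 lower, beside 21.9% and 7.27%. Ccl7 fell 8.42-fold (adjusted p = 0.0108) and Ccl25 rose 2.20-fold (adjusted p = 0.0242, not called on spike-in scaling), and Ccl8, also called, was below background in both groups. The same 4 genes that LPS raised were lower with both agents than with LPS: Ccl2 11.8-fold, Ccl7 76.7-fold, Ccl12 14.5-fold and Ccl8 at least 4.27-fold. Of the 8, 0 were higher (median -1.23), beside 5.99% of all genes lower and 12.7% higher. Both comparisons use the same LPS arrays, so the rise and the fall of these 4 genes are not independent results. Ccl8 also entered the test through the LPS group alone. For LPS+curcumin versus curcumin 0 of the 8 were called, beside 0.202% of all genes higher and 0.0103% lower. The interaction was called for Ccl12 (-5.28, adjusted p = 0.00888), and for Ccl8, which was above background with LPS only, so that no size can be given.

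Of 31 tested genes of LPS reception and signalling, 11 rose with LPS and 0 fell (median 0.32), beside 4.12% and 1.61% of all genes. With curcumin 4 rose and 5 fell (median -0.30), beside 21.9% and 7.27%, and with both agents against LPS 0 rose and 8 fell (median -0.50), beside 12.7% and 5.99%. Tlr4, the LPS receptor, fell with curcumin (log2 difference -2.25, SE 0.42, adjusted p = 0.00417), as did the transcription factor genes Irf8 and Fos (-1.74 and -1.67), while Relb, an NF-kB subunit, rose (1.35, not called on spike-in scaling, adjusted p = 0.65). Irf7, an interferon regulatory factor, rose by 5.18 with LPS and fell by 4.09 with both agents against LPS, and Nfkbia, which encodes the NF-kB inhibitor and is itself induced by NF-kB, rose by 2.98 with LPS and by 2.70 with both agents against curcumin. On spike-in scaling 4 of the 31 genes rose with LPS, beside 1.87% of all genes, and 0 rose and 19 fell with curcumin, beside 7.24% and 43.5%. Of 8 genes for factors that govern the decay of messenger RNA, Zc3h12a, an RNase that cuts inflammatory transcripts, rose by 4.43 with LPS (adjusted p = 1.12e-05) and Zfp36, which binds AU-rich elements, by 1.69 (adjusted p = 0.0218, and 0.226 on spike-in scaling). LPS thus raised 2 of the 8 and lowered 0, beside 4.12% and 1.61% of all genes. With both agents against LPS, 0 rose and 2 fell, beside 12.7% and 5.99%. Zc3h12a fell by 1.503 (adjusted p = 0.00973) and Zfp36l1 by 0.80 (adjusted p = 0.0439, not called on all 5 scalings). Zfp36l1 was also lower with curcumin alone (-1.29, adjusted p = 0.00442). Zc3h12a was still 3.63 higher with both agents than with curcumin (adjusted p = 0.000417). Of 11 tested genes for proteases that can trim chemokines, 3 rose with LPS and 0 fell, beside 4.12% and 1.61% of all genes. Mmp13 rose by 5.36 on the log2 scale, Mmp14 at least 13.8-fold from below background (adjusted p = 0.000121), and Mmp9 by 1.67 (adjusted p = 0.014, and 0.0526 on spike-in scaling). With both agents against LPS, Mmp13 fell by 2.96, and Mmp14 was called lower and was well above background on 1 of the 3 LPS+curcumin arrays.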

How the data were processed

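Total RNA of BV-2 cells was hybridised to 12 one-colour (Cy3) arrays, 3 per group, per the labels' protocols. The deposited scanner files hold linear intensities from Agilent Feature Extraction, run by the authors (its version is 10.5.1.1 in the file headers, 9.1 in the submitters' processing notes). The intensity used is the processed signal, background-subtracted per the file headers, and the deposited value table gives the same intensities within 0.397%. No reads were counted, so the number of arrays limits the precision.

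Probes were named through RefSeq accessions (GRCm38.p6, for names, gene order and promoters). Outlier-marked spots were left out (707 missing values in 705 genes, none in the 8 chemokines), spots of a probe were averaged, and the brightest probe stood for a gene. A gene entered the test if 1 group or more had it well above background throughout: log2 signal less the array's 75th percentile, 4 group means over all 12 arrays, lmFit and eBayes of limma 3.58.1 in R 4.3.3 (data.table version 1.17.8, jsonlite 2.0.0), two-sided, Benjamini-Hochberg over 19329 genes, called below 0.05. The fit was tested on simulated data. The members and the gene lists were chosen with earlier results of these data known, and members were named whatever their test showed; of a list, up to 4 called genes with the smallest adjusted p per comparison are named. A gene not above background in 1 group has a bound: the brighter mean against, per array, the higher of the probe's own signal and the lowest signal well above background. Of the genes named here, Ccl20, Ccl8, Ccr7, Mmp14 and Camp entered the test through the LPS group alone, and P2ry12 through the untreated group alone. For these genes the filter favoured a higher value in that group.

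Same-numbered arrays share a slide and scan per the file headers. Their deviations from group means correlated at 0.218 to 0.572 (LPS or curcumin versus untreated), 0.370 to 0.713 (LPS+curcumin versus curcumin), 0.087 to 0.222 (LPS+curcumin versus untreated) and -0.019 to 0.177 (LPS+curcumin versus LPS). Values with slide as a replicate block stand beside a result where they change the call. The scanner files used here have no mean-signal column, so the normexp alternative (offset 50) took the median signal and the median background. Other alternatives were 4 scalings, filters on dim probes, the spread estimate and leaving out arrays or slides. The values of 1 receptor gene are not reported here.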

Additional observations from a re-analysis of the deposited data

Results flagged for a closer look

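In 4 chemokines the effect of 1 agent had opposite signs on all 3 slides without and with the other agent. The share of all genes with such a pattern was not computed, so the count of 4 has no background to be set against. With curcumin alone, 47.4% of all genes were higher than in untreated cells without overlap. Ccl5 was higher with curcumin alone and lower with curcumin in the presence of LPS on each slide, a difference of -1.42 (interaction in limma, adjusted p = 0.514). Ccl9 showed the same pattern with -2.87 (adjusted p = 0.0522), and Ccl20 with -2.87 (adjusted p = 0.208), although Ccl20 was below background with and without curcumin alone. Ccl6 was higher with LPS alone and lower with LPS in the presence of curcumin on each slide, a difference of -1.04 (adjusted p = 0.817). None of the 4 interactions passed the threshold. On spike-in scaling curcumin alone lowered the group mean of Ccl5, Ccl9 and Ccl20, by 0.81, 0.61 and 0.04.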

How the results depend on the processing

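Of 28 alternatives (27 for the interaction), those that left the direction and the side of the threshold of a member's change as they were numbered 176 of 195 for LPS versus untreated, 169 of 195 for curcumin versus untreated, 141 of 195 for LPS+curcumin versus LPS, 178 of 195 for LPS+curcumin versus curcumin, 156 of 195 for LPS+curcumin versus untreated and 179 of 188 for the interaction, counted over the 7 members. The cause of the changes below was not tested.

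Counts of members called are given with the share of all genes called in the same fit. For LPS+curcumin versus LPS (3 of 7, 18.7%) they were 6 with median scaling (21.3%), spike-in scaling (16.6%) and slide as a replicate block (28.9%), 1 without a filter on dim probes (8.28%), 0 with normexp background correction (0.46%) and on the compared groups alone (1.55%), and 0 to 7 when 1 array or 1 replicate number was left out (0.0466% to 54.8%). For LPS+curcumin versus untreated (4 of 7, 24.5%) they were 1 with median (35.9%), spike-in (47%) or normexp processing (0.455%) and on the compared groups alone (3.65%), 2 with quantile scaling (16%), and 1 to 5 on leaving out arrays (0.129% to 53.6%). For LPS versus untreated (6 of 7, 5.73%) normexp gave 3 (1.02%) and leaving out arrays 2 to 6 (1.01% to 9.49%). For curcumin versus untreated (3 of 7, 29.2%) leaving out arrays gave 0 to 3 (0.103% to 49.6%), and for LPS+curcumin versus curcumin (3 of 7, 0.212%) 1 to 3 (0.0207% to 1.06%), with 1 on the compared groups alone (0.031%). For the interaction (0 of 7, 0.729%) slide as a replicate block (1.18%) and trended robust variance (0.823%) each gave 1, and leaving out arrays gave 0 to 2 (0% to 2.26%). The block changed no other count beyond 1.5 times. NF-kB matches fell from 2 promoter windows to 0 when the forward strand alone was searched.

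Signs of uncalled differences turned as follows. In curcumin versus untreated, Ccl5 was -0.54 (median), -0.071 (normexp) and -0.81 (spike-in), Ccl9 -0.34, -0.11 and -0.61 in the same order, Ccl17 -0.36 (median), -0.48 (quantile) and -0.63 (spike-in), and Ccl20 -0.13 (quantile) and -0.038 (spike-in). In LPS+curcumin versus LPS, Ccl6 was -0.36 (median), -0.35 (spike-in), -0.080 to 0.91 on leaving out arrays or replicate numbers. In LPS+curcumin versus curcumin, normexp gave 0.088 for Ccl6, 0.31 for Ccl9 and -0.79 for Ccl20, and Ccl17 was 0.028 (always detected probes), 0.10 (spike-in) and -0.34 to 0.33 on leaving them out. In LPS+curcumin versus untreated, Ccl6 was -0.10 (median) and -0.22 (spike-in), Ccl9 -0.63 (median), -0.75 (spike-in), -0.21 to 0.58 on leaving out arrays, and Ccl17 -0.41 (median), -0.51 (quantile) and -0.53 (spike-in). The interaction of Ccl4 ranged from -0.29 to 0.85 on leaving out arrays. Of called differences, Ccl20 in LPS+curcumin versus LPS was 0.014 with normexp, and Ccl3 in LPS+curcumin versus untreated was -0.077 with spike-in scaling.

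Ccl17 and Ccl20 lie near background, which limits what their folds can show.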
